A study of Mus musculus with 12 samples.

Results

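Mice bearing 4T1 tumours received miR-183-5p-EVs or ctrl-EVs, and the RNA-Seq profiles of their tumours were compared. 4T1 is a mouse mammary carcinoma line that forms tumours in immunocompetent BALB/c mice. Members were chosen by the treatment in the sample labels: 3 miR-183-5p tumours and 3 ctrl tumours, which are 6 of the 12 libraries of the series. The other 6 libraries come from 3 miR-142-5p and 3 miR-222-3p tumours. They entered the statistical fit, and they appear below only where the miR-183-5p tumours are set against them. All mice were female BALB/c, aged 6 to 8 weeks, and carried 100000 4T1 cells injected under the skin of the right flank. From day 5, extracellular vesicles (EVs, membrane particles released by cells) were injected beside the tumour at 3 µg every 2 days, and tumour RNA was taken on day 21. The EVs came from MS-1 mouse endothelial cells and had been electroporated with a synthetic miRNA: a miR-183-5p mimic, or in the ctrl group a mimic of the nematode miRNA cel-miR-67. The ctrl tumours therefore also received EVs, and no untreated tumour is part of the comparison.

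A microRNA guides an Argonaute protein to messenger RNAs that pair with its seed, the bases near its 5′ end, and lowers their stability and translation. The gene of miR-183 lies in a cluster with those of miR-96 and miR-182, which is best known from sensory organs. Whole 4T1 tumours hold carcinoma cells together with macrophages, neutrophils, lymphocytes, fibroblasts and vessels. The neutrophils answer to granulocyte colony-stimulating factor, and macrophages can take up an inflammatory (M1-like) or a repair-associated (M2-like) state. Polyadenylated RNA was sequenced, which leaves out mature miRNAs, so these libraries do not give the amount of mimic in each tumour.

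The mature sequences below, from RefSeq (GRCm38.p6), are those of the mouse miRNA whose mimic was injected and of its cluster partners, followed by the miRNAs of the other mimic groups. Capitals mark the seed (bases 2 to 8).
mmu-miR-183-5p: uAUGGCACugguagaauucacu
mmu-miR-96-5p: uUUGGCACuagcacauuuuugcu
mmu-miR-182-5p: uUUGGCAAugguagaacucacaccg
mmu-miR-142a-5p: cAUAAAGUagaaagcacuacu
mmu-miR-222-3p: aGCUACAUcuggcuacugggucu
The miR-183-5p sequence lies on the minus strand at chr6:30169711-30169732, and none of the other 4 shares its seed.

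Libraries held between 20285968 and 27021401 estimated reads, and the 15459 genes that reached 10 reads in 3 or more of the 12 libraries were kept. The carcinoma keratins were abundant in every tumour, with Krt8 at 481 to 732 TPM and Krt18 at 632 to 1050 TPM (Salmon's transcript abundance, a level per unit of length). Tumour 3 of the miR-183-5p group stood apart from tumours 1 and 2 before any gene was tested. It lay at -14.6 on the first principal component (41% of the variance), where tumours 1 and 2 lay at -2.28 and -4.09. miR-222-3p tumour 3 lay at -10.7, and miR-142-5p tumour 3 at 19.3, the other end. The gene with the largest weight in this component was Gm28661 (loading 0.197), so its values below are not a separate observation. The library of miR-183-5p tumour 3 differed from the other miR-183-5p and the ctrl libraries in how reads were split between Gm28661 and its mitochondrial copy. Gm28661 received 0.0163% of the reads of both in this library (95% Wilson interval 0.00953% to 0.0279%), against 17.1% and 18.1% in tumours 1 and 2 and 9.88% to 41.8% in ctrl. The 3 miR-222-3p libraries were low as well (0.000831% to 0.324%) and the 3 miR-142-5p libraries were not (7.13% to 23.5%), so that 4 libraries, all of miR-222-3p among them, stood apart from the other 8. The labels name no batch for this split. Values without tumour 3 are therefore given beside many of the results, though not beside all.

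The tumour 3 library was checked for skeletal muscle, the tissue that lies beneath the flank skin. The 34 muscle genes examined summed to 954 TPM in this tumour, against 174 to 191 TPM in ctrl, 167 and 180 TPM in miR-183-5p tumours 1 and 2, and 157 to 205 TPM in the 6 tumours of the other mimics. Tumour 3 held the highest value of the 12 tumours in 29 of the 34 genes and exceeded the next tumour more than 5-fold in 19 of them. Acta1, the actin of the skeletal muscle sarcomere, was at 79.9 TPM in tumour 3 and at no more than 0.965 TPM in any other tumour. Ckm, the muscle creatine kinase, reached 55.5 TPM there and 0.175 to 0.621 TPM elsewhere. Myh4, the myosin heavy chain of fast fibres, was at 33.8 TPM against 0 to 0.137 TPM. Mylpf, a myosin light chain, and Tnnt3, fast troponin T, were at 62.9 and 104 TPM. Of the 34 genes, 15 were under the count filter, and 4 were at 0 in all ctrl tumours. Of the 19 that passed it, 12 had a p-value from DESeq2 with tumour 3 in the fit. Of these, 6 were higher in the miR-183-5p group at an unadjusted p-value under 0.05 (1.62% over all genes). The other 7, Acta1 and Ckm among them, had none. Without tumour 3 all 19 had a p-value, and 0 were under 0.05 (1.80% over all genes, either direction).

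**Figure D1:**
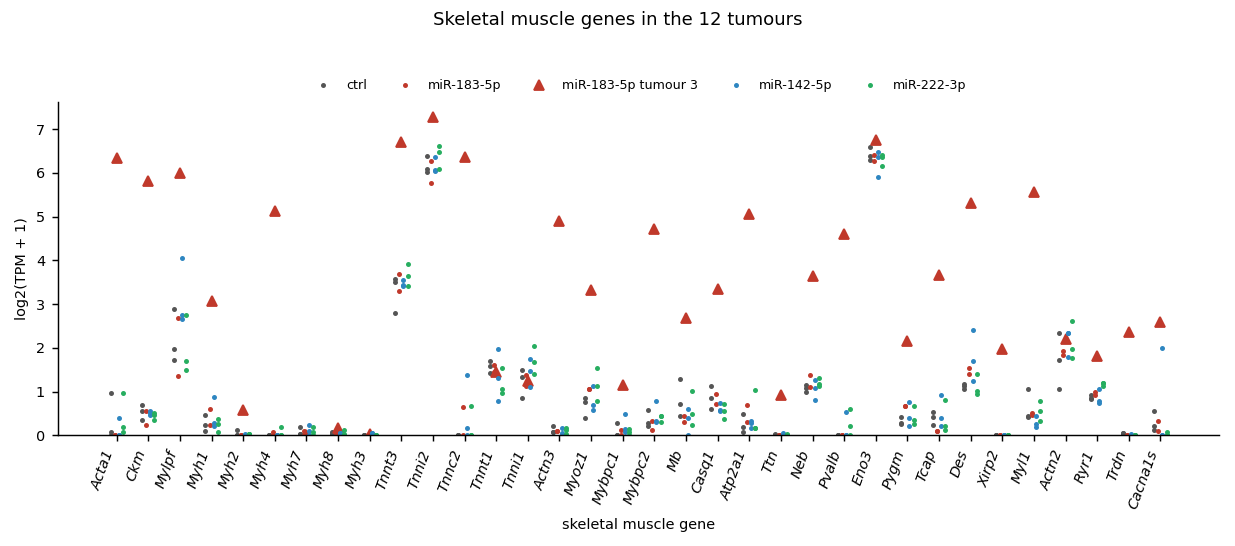
Level of 34 skeletal muscle genes in each of the 12 tumours, as log2(TPM + 1), with 1 point per tumour coloured by treatment and miR-183-5p tumour 3 drawn as a triangle. The triangle is the highest point in 29 of the 34 genes, while the other miR-183-5p tumours lie among the rest.

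The first question was which genes differed between miR-183-5p and ctrl tumours. None did at the threshold: of 15413 genes with an adjusted p-value in the fit of all 12 libraries, 0 were under 0.05 (percent called 0, DESeq2 Wald test), and the lowest adjusted p-value was 0.173. edgeR's quasi-likelihood test also called 0 genes. Before adjustment, DESeq2 placed 496 genes (3.22%) under 0.05, with 250 (1.62%) higher and 246 (1.60%) lower in miR-183-5p tumours. With edgeR the number was 444 (2.87%). The groups did not overlap in 1418 of the 15459 genes (9.17%), with 684 (4.42%) higher and 734 (4.75%) lower. The median log2 fold change over all genes was -0.01. Below, log2 fold changes and standard errors (SE) come from this fit, and "a p-value under 0.05" means an unadjusted one from it. Its adjusted p-values, 0.173 or more for every gene, are not repeated at each gene. With 1 library per tumour, all p-values measure only the spread between these tumours.

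Single tumours decided many of these counts. Tumour 3 was the highest of the 3 miR-183-5p tumours in 144 of the 250 higher genes (57.6%) and the lowest in 137 of the 246 lower genes (55.7%). Without it, 277 genes (1.80%) had a p-value under 0.05, 111 higher (0.720%) and 166 lower (1.08%), and 0 passed the adjusted threshold. Leaving out miR-183-5p tumour 1 gave 10 genes under the adjusted threshold and leaving out tumour 2 gave 13, with tumour 3 in both fits. Without ctrl tumour 2, 956 genes had a p-value under 0.05 and 1 passed the adjusted threshold.

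When the 6 tumours were fitted alone, without the spread of the other mimic groups, 36 genes (0.233%) passed the adjusted threshold, 26 of them higher (0.168%) and 10 lower (0.0647%). In each of the 36 the groups did not overlap (9.17% over all genes). A p-value under 0.05 in the fit of 12 libraries was found for 28 (3.22% over all genes). The calls came from these same tumours, so neither count is separate support for them. Without tumour 3 this fit called 16 genes, 10 of them shared. edgeR on the same 6 tumours called 0, with a lowest adjusted p-value of 0.512 and 716 genes (4.63%) with an unadjusted p-value under 0.05. Other tumours held many of these values too. Of the 26 higher genes, 21 were above every ctrl tumour in miR-222-3p tumour 3 and 20 in miR-142-5p tumour 1. In the other 4 tumours of these groups the number was between 1 and 12. Of the 10 lower genes, all 10 were below every ctrl tumour in miR-222-3p tumour 3, 8 in miR-142-5p tumour 1 and 3 to 5 in the other 4. The matching shares over all genes were not computed, so these counts have no background to be read against. Below, "rose" and "fell" refer to these 36 genes in the fit of the 2 groups.

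Genes of matrix breakdown and of contractile stroma were among those that rose. Mmp13, the collagenase 3 that cleaves fibrillar collagen (chr9:7272514-7283331, plus strand), had normalised read counts of 10476, 6726 and 12767 in miR-183-5p tumours 1 to 3 and of 4601, 4682 and 6034 in ctrl. Each treated tumour was above each ctrl tumour, and tumour 2 came closest to ctrl. Means were 9990 ± 3050 and 5106 ± 805 (SD, n = 3 each), and the log2 fold change was 0.97 (SE 0.25, DESeq2 adjusted p = 0.242 in 12 libraries, 0.00892 in the 2 groups). It was 0.75 without tumour 3, where the fit of the 2 groups gave an adjusted p-value of 0.409 (DESeq2).

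Mmp3, stromelysin 1, which degrades proteoglycans and activates other metalloproteinases, was at 4523, 4254 and 7306 normalised counts against 3006, 2811 and 2741 in ctrl. The treated tumours lay clear of ctrl, with tumour 3 the highest. The log2 fold change was 0.91 (SE 0.28) and 0.62 without tumour 3. In the fit of the 2 groups Mmp3 passed both with tumour 3 (DESeq2 adjusted p = 0.00739) and without it (0.0136). Tagln, the actin-binding protein of smooth muscle and myofibroblasts, had 2880, 2287 and 2967 normalised counts against 1198, 1597 and 929. These groups did not overlap and differed by 1.13 (SE 0.66) on the log2 scale. In the other mimic groups Tagln ran from 614 to 3240 normalised counts. In the fit of the 2 groups the adjusted p-value was 0.000271 (DESeq2), and 0.0317 without tumour 3. Cpxm2, a carboxypeptidase-like secreted protein, was at 622, 492 and 764 normalised counts against 298, 308 and 278 in ctrl. It was 1.09 higher (SE 0.44) and also passed without tumour 3 (adjusted p = 0.017 by DESeq2 in the 2 groups).

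Promoter windows of both metalloproteinase genes are shown because Mmp3 and Mmp13 were higher together. Each holds an AP-1 element, TGACTCA or its reverse complement TGAGTCA, in the 300 bases from 250 before to 50 after the start site. The windows are from RefSeq (GRCm38.p6, plus strand), with the element in capitals.
Mmp13, chr9:7272468-7272496: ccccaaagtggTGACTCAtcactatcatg
Mmp3, chr9:7445765-7445793: ggaagcaattaTGAGTCAgttttcgggtg
The element starts 35 bases before the start site of Mmp13 and 46 before that of Mmp3. Of 32851 promoters of this length, 1709 (5.2%) hold it. These matches describe the letters in the window and do not show that a factor was bound.

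The list of 24 fibroblast and matrix genes was higher in most members. A positive log2 fold change was found in 21, with a median of 0.52 and 0.44 without tumour 3, against -0.01 over all genes. The groups did not overlap in 12 members, all higher (4.42% over all genes). Without tumour 3, 0 members had a p-value under 0.05, and with it only 1 did (higher, 1.62% over all genes). That member was Dcn, a small proteoglycan that binds collagen. Its normalised counts were 548, 592 and 680 against 367, 474 and 448 in ctrl, and the log2 fold change was 0.50 (SE 0.20). Sparc, a matrix protein that binds collagen, was at 28409, 28409 and 32652 against 20517 to 24223 normalised counts. Its log2 fold change of 0.41 (SE 0.23) did not pass. Col1a1 and Col1a2, the chains of type I collagen, were 0.91 and 0.88 higher on the log2 scale and did not overlap with ctrl, without a p-value under 0.05. The mean of the list relative to ctrl was 0.52, 0.52 and 0.69 log2 units in the 3 treated tumours. Ctrl tumour 2 reached 0.40 and miR-222-3p tumour 3 reached 0.95. Summed TPM of the list were 5320 to 5580 in treated and 4050 to 5130 in ctrl tumours.

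**Figure D2:**
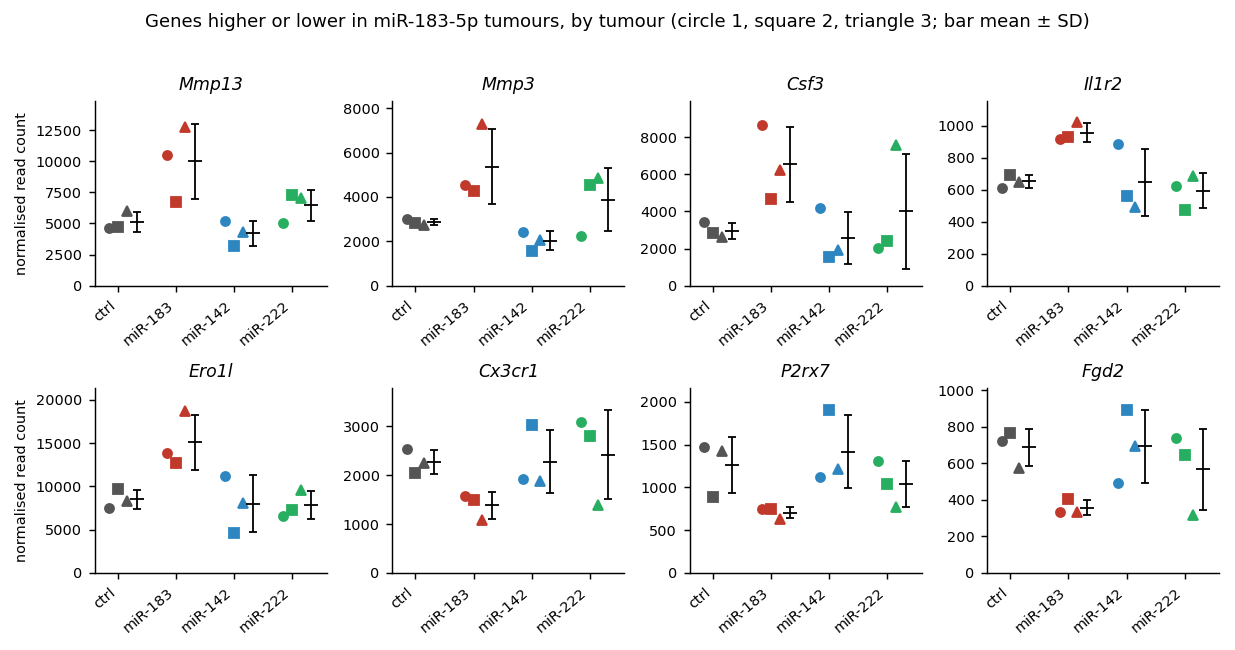
Normalised read counts of 8 genes in each tumour of the 4 groups (circle, square and triangle for tumours 1 to 3; horizontal bar and whiskers, mean ± SD of 3 tumours). In Mmp13, Mmp3, Csf3, Il1r2 and Ero1l all miR-183-5p tumours lie above all ctrl tumours, and in Cx3cr1, P2rx7 and Fgd2 all lie below.

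Neutrophil genes and inflammatory cytokines were the next group in which most members were higher. Csf3, which encodes granulocyte colony-stimulating factor, the growth factor of neutrophils, had 8675, 4666 and 6246 normalised counts against 3406, 2845 and 2595 in ctrl. Tumour 1 was highest, and tumour 2 still exceeded all of ctrl. Over 12 libraries Csf3 was 1.15 higher on the log2 scale (SE 0.59). In the 2 groups alone Csf3 rose (DESeq2 adjusted p = 0.000271, and 0.017 without tumour 3). miR-222-3p tumour 3 was at 7591, within the range of the miR-183-5p tumours.

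Il1r2, a decoy receptor for interleukin 1 found on neutrophils, was at 917, 931 and 1022 normalised counts against 613, 692 and 650. The spread within each group was small beside the gap between them, and the log2 fold change was 0.55 (SE 0.21). S100a9 and S100a8 encode the subunits of calprotectin, an abundant neutrophil protein. S100a9 was at 9757, 6346 and 7606 normalised counts against 5493, 3345 and 6006, with no overlap (log2 fold change 0.68, SE 0.33). S100a8 was at 4575, 2840 and 3423 against 2533, 1456 and 2844, where tumour 2 lay just under the highest ctrl tumour (0.67, SE 0.33). Camp, a granule protein made by immature neutrophils, went the other way, with 28.4, 17.2 and 31.8 against 70.5, 22.3 and 71.1 normalised counts. The groups overlapped, and it had a log2 fold change of -1.08 (SE 0.47).

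Of 19 neutrophil genes tested, 15 were higher in treated tumours, with 3 higher and 1 lower at a p-value under 0.05 (1.62% and 1.60% over all genes). The median was 0.44. Without tumour 3 it was 0.48, with 1 gene higher and 1 lower at an unadjusted p-value under 0.05. Their summed TPM were 4510, 3120 and 3670 in miR-183-5p tumours, all above the 2490, 1810 and 2850 of ctrl. More neutrophils and more of these transcripts per neutrophil cannot be told apart in bulk RNA, and the same holds for every cell type list below. The share that this list has in the cytokine values was not tested.

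Among 19 inflammatory cytokine and mediator genes, 17 were higher, with a median of 0.29, also without tumour 3. The groups did not overlap in 5 (4.42% over all genes), and 4 were higher at a p-value under 0.05 (1.62% over all genes). Il6, a cytokine that signals through STAT3, was at 131, 101 and 46.2 normalised counts against 33.1 to 43.3 in ctrl. Tumour 3 was barely above ctrl. The log2 fold change was 1.27 (SE 0.46) and 1.59 without tumour 3. Without tumour 3 the adjusted p-value of Il6 was 0.944 in the fit of all groups (DESeq2). It was 0.0184 in that of the 2 groups, and 0.306 there with tumour 3. Il1b, the inflammasome-processed interleukin, was at 6750, 3848 and 4921 against 2739, 3787 and 3870. Tumour 2 was within ctrl, and the difference was 0.58 (SE 0.24). Il33, an alarmin released by damaged barrier and stromal cells, was at 194, 276 and 122 against 78.6, 103 and 124 (0.96, SE 0.40). Ptges, the prostaglandin E synthase, showed the smallest spread, at 3033, 3254 and 3248 against 2552, 2550 and 2696 normalised counts (0.29, SE 0.11).

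Nos2, the inducible nitric oxide synthase that marks M1-like macrophages, was at 4053, 3570 and 4842 normalised counts against 1617, 2813 and 1706 in ctrl. The groups did not overlap, and Nos2 rose in the fit of the 2 groups (log2 fold change 1.02, SE 0.58; DESeq2 adjusted p = 0.0039). It did not pass there without tumour 3 (0.247). Arg1, the arginase that competes with Nos2 for arginine and marks M2-like macrophages, was at 9838, 8210 and 7148 against 8825, 6492 and 7793. These groups overlapped (0.12, SE 0.27), and without tumour 1 the log2 fold change was -0.00. Tgfb1, an immunosuppressive growth factor, was at 2020, 2252 and 2596 against 2352, 1845 and 1892 (0.17, SE 0.15).

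Chemokines did not move together. Of 26 tested, 11 were higher and 15 lower, with a median of -0.03. Cxcl2 (higher) and Ccl12 (lower) were the members with a p-value under 0.05 (1.62% and 1.60% over all genes). Cxcl2, a neutrophil attractant, was at 672, 253 and 534 normalised counts against 176, 191 and 301 (log2 fold change 1.13, SE 0.44), with tumour 2 inside the ctrl range. Cxcl3, which signals through the same receptor, was at 291, 117 and 140 against 103, 51.1 and 101 (1.10, SE 0.56). Ccl12, a monocyte attractant, was at 383, 462 and 382 against 653, 528 and 499. Its groups did not overlap, and it was lower (-0.45, SE 0.17).

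Macrophage genes were lower in the treated tumours. Of 18 tested, 16 had a negative log2 fold change (median -0.40). The groups did not overlap in 6, all lower (4.75% over all genes), and 3 were lower at a p-value under 0.05 (1.60% over all genes). Without tumour 3 the median was -0.26, again with 16 negative, and 0 had a p-value under 0.05. Tumour 3 was lowest in the mean of the list, at -0.62 log2 units from ctrl, with tumours 1 and 2 at -0.14 and -0.23. Ctrl tumour 2 was at -0.30. Summed TPM overlapped, at 5310, 4940 and 2830 in treated and 6270, 4540 and 7410 in ctrl tumours. The part of muscle RNA in tumour 3 in this difference was not tested.

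Cx3cr1, the fractalkine receptor of monocytes and macrophages, was at 1575, 1489 and 1075 normalised counts against 2529, 2040 and 2254. All treated tumours were below all ctrl tumours. The log2 fold change was -0.72 (SE 0.28; -0.57 without tumour 3), and Cx3cr1 fell in the fit of the 2 groups (DESeq2 adjusted p = 0.0331, and 0.247 without tumour 3). Csf1r, the receptor for the macrophage growth factor, was at 4557, 4222 and 3327 against 5402, 4830 and 6188 (-0.44, SE 0.22). C1qb, a chain of complement C1q made by macrophages, was at 6339, 6573 and 4694 against 9882, 6726 and 7525 (-0.45, SE 0.21). Neither overlapped with ctrl, though tumour 2 was close to the lowest ctrl tumour in C1qb. Cd14, the co-receptor for endotoxin, went the other way, with a log2 fold change of 0.45.

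Several receptors and signalling genes of myeloid cells fell as well. Cd209c, a C-type lectin, was at 209, 193 and 147 normalised counts against 399, 381 and 388. The ctrl tumours were nearly equal, and every treated tumour was far below them. Cd209c had a log2 fold change of -1.09 (SE 0.43) and passed in the 2 groups with tumour 3 (DESeq2 adjusted p = 0.000271) and without it (0.00717). In the other groups it ranged from 116 to 515. Fgd2, an exchange factor for Cdc42 in antigen-presenting cells, was at 335, 407 and 331 against 720, 768 and 574 (-0.94, SE 0.29), and it also passed both ways in the 2 groups (0.000962 and 0.0379 by DESeq2).

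P2rx7, an ATP-gated ion channel that triggers inflammasome activation, was at 747, 742 and 628 normalised counts against 1472, 883 and 1431. The treated tumours varied little, and the ctrl tumours spread widely. P2rx7 was lower by a log2 fold change of -0.84 (SE 0.26) and fell in the 2 groups (adjusted p = 0.0346 by DESeq2, and 0.581 without tumour 3). Slamf8, a receptor of the SLAM family on macrophages, was at 314, 328 and 262 against 619, 492 and 464 (-0.80, SE 0.31). Camk1d, a calmodulin-dependent kinase, was at 415, 424 and 330 against 765, 545 and 712 (-0.79, SE 0.27). Both fell in the fit of the 2 groups, and neither passed there without tumour 3 (DESeq2 adjusted p = 0.377 and 0.472). Olfr1372-ps1, an olfactory receptor pseudogene, was at 756, 661 and 641 against 1105, 1253 and 1121 (-0.76, SE 0.24), and as a pseudogene it may share reads with related genes.

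The study's M1-like and M2-like gene lists, written for human cells and matched to mouse symbols, were examined next. Of 39 M2-like genes, 32 were lower (median -0.22). Of these, 6 did not overlap with ctrl (4.75% over all genes) and 3 had a p-value under 0.05 (1.60% over all genes). Those were P2ry13, a nucleotide receptor, Ms4a6d, a membrane protein of macrophages, and Slco2b1, an organic anion transporter. P2ry13 was at 173, 227 and 120 normalised counts against 318, 266 and 286 (-0.74, SE 0.32). Ms4a6d was at 2120, 2232 and 2070 against 2843, 2546 and 2685 (-0.33, SE 0.16). Slco2b1 was at no more than 45.9 against 77.7, 56.2 and 81.2 (-1.06, SE 0.52). The median of the list was -0.15 without tumour 3, with 0 members under 0.05, and -0.11 without ctrl tumour 3. Of 44 M1-like genes, 22 were higher and 22 lower (median -0.00). Il6, given above, was the only one with a p-value under 0.05 (higher, 1.62% over all genes). As 16 of 18 general macrophage genes were lower too, a shift within macrophages and fewer macrophages cannot be told apart.

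**Figure D3:**
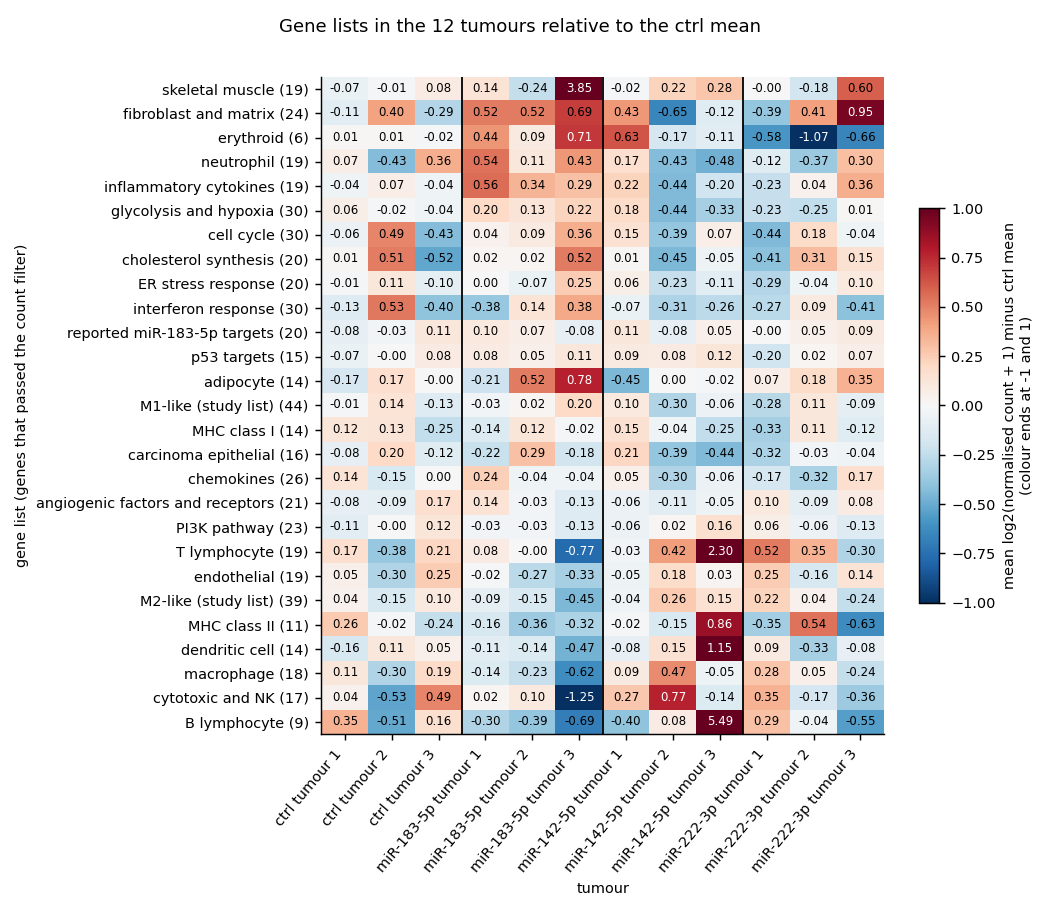
Mean log2(normalised count + 1) of each gene list in each of the 12 tumours minus the ctrl mean, with the number of genes per list in brackets and the value in each cell (colour ends at -1 and 1). Fibroblast and cytokine lists are positive and macrophage genes negative in all 3 miR-183-5p tumours, and skeletal muscle stands out in tumour 3 alone at 3.85.

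Most genes of lymphocytes, antigen presentation and vessels had negative log2 fold changes, and 2 dendritic cell genes among them, given below, had a p-value under 0.05. Of 19 T lymphocyte genes 17 were negative (median -0.15), but without tumour 3 the median was 0.07 and 11 were positive. Tumour 3 was low, with 73.9 summed TPM against 131 and 146 in tumours 1 and 2 and 114 to 143 in ctrl. Of 17 cytotoxic and natural killer genes 13 were negative (median -0.43, -0.22 without tumour 3 and -0.08 without ctrl tumour 3). Gzma, a granule protease of killer cells, was at 304, 257 and 43.9 normalised counts against 131, 117 and 153. Tumours 1 and 2 exceeded ctrl and tumour 3 was below it, so that the log2 fold change was 0.59 with it and 1.06 without it. Without tumour 3 the adjusted p-value of Gzma was 0.807 in the fit of all groups (DESeq2). It was 0.0317 in that of the 2 groups, and 0.999 there with tumour 3.

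All 11 genes of MHC class II presentation were negative (median -0.24). DESeq2 gave no p-value for 2 of them, and 0 of the others had one under 0.05 in the fit of 12 libraries. That fit includes miR-142-5p tumour 3, in which the mean of this list lay 0.86 log2 units above ctrl. Without ctrl tumour 1 the median was 0.02. Ciita, the master regulator of class II genes, was at 1321, 1318 and 1514 normalised counts against 1944, 2538 and 1741. Its groups did not overlap (log2 fold change -0.58, SE 0.35). The unadjusted DESeq2 p-value of Ciita was 0.0911 in 12 libraries and 0.000795 in the 2 groups, where the adjusted one was 0.182. Of 14 dendritic cell genes 10 were negative (median -0.30), and -0.03 was the median without ctrl tumour 3. Batf3 and Irf8 had a p-value under 0.05 (lower, 1.60% over all genes), and without tumour 3 the number was 0. Batf3, a factor needed by cross-presenting dendritic cells, was at 51.0, 80.3 and 58.2 against 92.1, 104 and 76.3 (-0.52, SE 0.26). Irf8, another factor of that lineage, was at 2199, 2375 and 2304 against 2877, 3266 and 2436 (-0.32, SE 0.16). Of 19 endothelial genes 18 were negative (median -0.20), with 0 p-values under 0.05. The median was -0.11 without tumour 3, -0.09 without ctrl tumour 3 and -0.34 without ctrl tumour 2.

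B lymphocyte genes were low in all 6 tumours (29.6 to 81.7 summed TPM). Of 15 listed, 9 passed the count filter (median -0.50), and 6 of these had no p-value from DESeq2. The mean of this list in miR-142-5p tumour 3, which is part of the fit, lay 5.49 log2 units above ctrl. The 14 MHC class I genes had a median of -0.02 and the 16 carcinoma epithelial genes one of -0.03, with 0 p-values under 0.05 in either list. Krt8 was at 14844, 16185 and 15438 normalised counts against 16177, 20850 and 14899 (log2 fold change -0.16, SE 0.15). The 6 erythroid genes tested were all positive (median 0.46, 0.27 without tumour 3), and their summed TPM were 506, 436 and 761 against 362 to 451 in ctrl. Hbb-bs, a beta globin, was at 1978, 1852 and 3405 normalised counts against 1679, 1476 and 1718 (0.57, SE 0.36). Skin keratinocyte genes summed to 49.6 to 68.8 TPM in treated and 60.3 to 72.4 TPM in ctrl tumours, and hair follicle keratins to no more than 7.27 TPM.

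Adipocyte genes did not move as a list (median 0.02 over 14 genes), yet it held the gene with the lowest p-value of all. Plin4, a lipid droplet coat protein, was at 0 normalised counts in each ctrl tumour and in miR-183-5p tumour 1, and at 55.5 and 77.5 in tumours 2 and 3 (DESeq2 adjusted p = 0.173). The groups overlapped at 0, and no fold change is given. In the 6 tumours of the other mimics Plin4 was at 15.5 to 59.3, so that values of 0 were found only in ctrl and in miR-183-5p tumour 1. Car3, a carbonic anhydrase of fat and muscle, was at 25.7, 44.5 and 387 against 28.3, 64.5 and 16.5 normalised counts. It was high in tumour 3 alone (log2 fold change 2.06 with it and -0.06 without it).

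Genes of glycolysis and the response to low oxygen were higher by small amounts in nearly all members. Of 30 tested, 27 were positive (median 0.18, and 0.15 without tumour 3), 11 did not overlap, all higher (4.42% over all genes), and 2, Ero1l and Pgk1, had a p-value under 0.05 (1.62% over all genes). Ero1l, an oxidase of the endoplasmic reticulum that forms disulphide bonds and is induced by hypoxia, was at 13826, 12760 and 18745 normalised counts against 7465, 9670 and 8372. Treated tumours lay well above ctrl, with tumour 3 the highest. Its log2 fold change was 0.83 (SE 0.27) and 0.64 without tumour 3. Ero1l rose in the fit of the 2 groups (DESeq2 adjusted p = 0.0039, and 0.086 without tumour 3).

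Pgk1, phosphoglycerate kinase, was at 33125, 33455 and 36387 normalised counts against 28712, 26878 and 23731 (log2 fold change 0.38, SE 0.19). Without tumour 3 its unadjusted p-value was 0.132 (DESeq2). Tpi1, triosephosphate isomerase, was at 20472, 20117 and 23428 against 18422, 18263 and 16338 (0.27, SE 0.17). P4ha1, a prolyl hydroxylase of collagen induced by hypoxia, was at 6678, 6485 and 7222 against 5645, 5083 and 6462, so close that tumour 2 exceeded the highest ctrl tumour by little (0.25, SE 0.13). Bnip3l, a mitophagy receptor induced by hypoxia, was not in the list and was at 7240, 7583 and 7927 against 5323, 5824 and 6237. It did not overlap and was 0.39 higher (SE 0.12), and 0.35 without tumour 3. Vegfa, the vascular growth factor, was at 6286, 5296 and 6025 against 3803, 5584 and 4095 (0.39, SE 0.25).

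**Figure D4:**
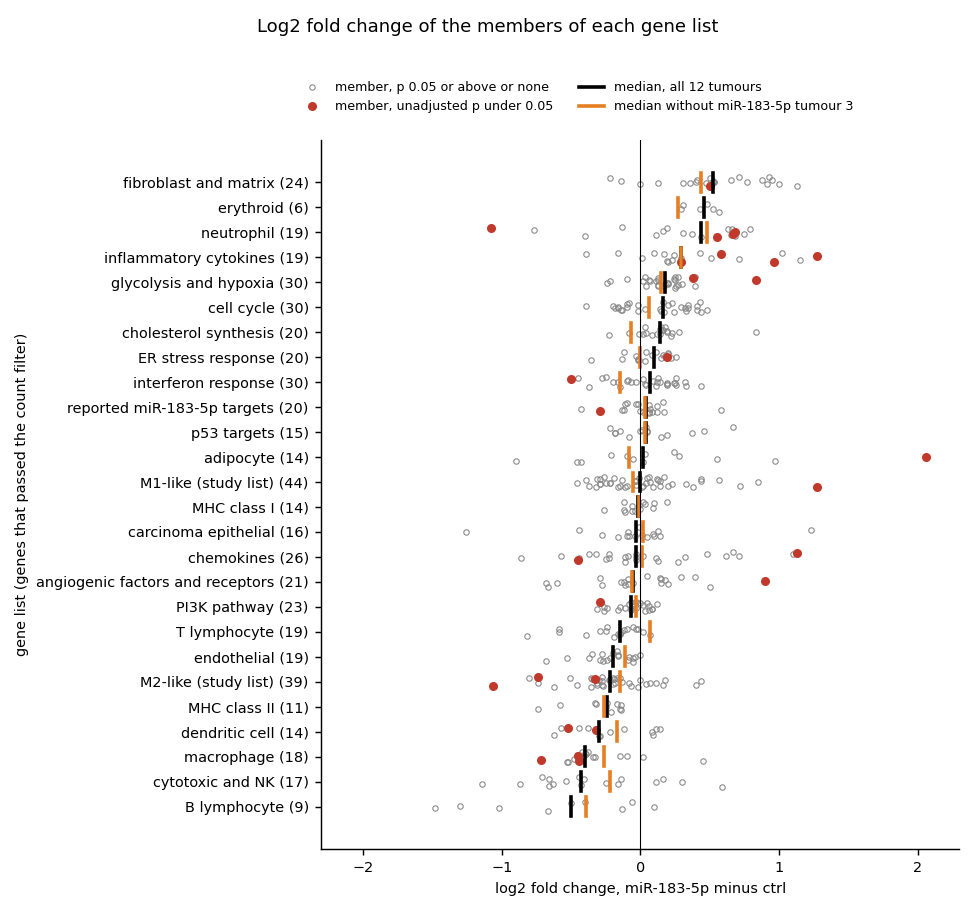
Log2 fold change (miR-183-5p minus ctrl) of every tested member of 26 gene lists, with filled points for an unadjusted p-value under 0.05, a black bar for the median and an orange bar for the median without miR-183-5p tumour 3; 1 member lies outside the axis. Medians run from 0.52 for fibroblast and matrix genes to -0.50 for B lymphocyte genes, of which 9 of 15 were tested and 6 had no p-value. Without tumour 3 the bars of interferon response, cholesterol synthesis and T lymphocyte genes change sign. So do those of adipocyte, carcinoma epithelial and chemokine genes, which lie within 0.1 of 0.

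Lists of cell growth, stress and signalling held few differences. The 30 cell cycle genes had a median of 0.16, 0.06 without tumour 3 and -0.06 without ctrl tumour 3. Cholesterol synthesis had a median of 0.14 with 17 of 20 genes positive, and -0.07 with 14 negative once tumour 3 was left out. The interferon response list went from 0.07 to -0.15 in the same way. Iigp1, an interferon-inducible GTPase, was its only member with a p-value under 0.05 (lower, 1.60% over all genes). It was at 6472, 7939 and 8831 normalised counts against 11123, 13139 and 8660 (log2 fold change -0.50, SE 0.23). The lists of p53 targets (median 0.04 over 15 genes) and of angiogenic factors and receptors (-0.05 over 21) were near 0. Aplnr, the apelin receptor, was the only member of the latter with a p-value under 0.05 (higher, 1.62% over all genes). It was at 299, 224 and 405 against 135, 242 and 121 (0.90, SE 0.33), with tumour 2 inside the ctrl range. Without tumour 3 the Aplnr log2 fold change was 0.66 (unadjusted p = 0.0703 by DESeq2).

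Of 20 genes of the stress response of the endoplasmic reticulum, 13 were positive (median 0.10, and 0.00 without tumour 3). Xbp1, a transcription factor of that response, was at 3962, 3880 and 4214 normalised counts against 3478, 3547 and 3572. Its groups did not overlap, and the log2 fold change was 0.19 (SE 0.09), and 0.15 without tumour 3. Of 23 genes of the PI3K pathway, 14 were negative (median -0.07). Irs1, an adaptor of the insulin and IGF1 receptors, was the only one with a p-value under 0.05 (lower, 1.60% over all genes). Its values are given with the reported targets.

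The genes with the highest test statistics included Des, which is in the skeletal muscle list, and others outside all lists. Fhl1, a LIM domain protein abundant in striated muscle, was at 143, 113 and 668 normalised counts against 65.9, 50.2 and 54.4. All treated tumours exceeded ctrl, but tumour 3 by far the most, and the log2 fold change of 2.44 (SE 0.59, DESeq2 adjusted p = 0.173) was 1.17 without it. Des, the intermediate filament of muscle, was at 74.4, 89.1 and 1762 against 62.5, 48.3 and 50.7 (3.58 with tumour 3 and 0.60 without it). Ndrg2, a member of the N-myc downstream-regulated family, was at 103, 123 and 297 against 43.2, 81.2 and 44.7 (1.63, SE 0.43; 1.01 without tumour 3). B3gnt9, a glycosyltransferase, was at 150, 158 and 183 against 104, 115 and 74.1 (0.75, SE 0.24).

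The genes with the lowest statistics had varied roles. Lars, the cytosolic leucyl-tRNA synthetase, was at 1485, 1528 and 1595 normalised counts against 1982, 1794 and 1870. The groups were tight and separate (log2 fold change -0.29, SE 0.09), and the value was -0.32 without tumour 3. In the other mimic groups Lars ran from 1451 to 1745 normalised counts, also below every ctrl tumour. Against those groups the miR-183-5p tumours differed by -0.03 (SE 0.08) on the log2 scale. Polr1a, the largest subunit of RNA polymerase I, was at 1495, 1402 and 1402 against 1775, 2006 and 1799 (-0.38, SE 0.12). It ran from 1319 to 1766 in the other mimic groups, again below every ctrl tumour. Fastkd2, a protein of mitochondrial RNA granules, was at 599, 577 and 477 against 822, 716 and 712 (-0.44, SE 0.14). Tmem268 was at 386, 441 and 483 against 590, 647 and 619 (-0.50, SE 0.16) and Scfd2 at 200, 101 and 101 against 239, 217 and 306 (-0.93, SE 0.30). None of these 5 passed in either fit. F8, coagulation factor VIII, was chosen after its values were seen, as it had the lowest p-value among lower genes. It was at 10.6, 21.8 and 8.75 against 58.9, 47.3 and 110 normalised counts. F8 fell in the 2 groups (log2 fold change -2.44, SE 0.59, adjusted p = 0.00739 by DESeq2, and 0.235 without tumour 3). In the other mimic groups F8 ran from 10.9 to 41.7, also below every ctrl tumour.

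To see where the miR-183-5p tumours also differed from tumours that received another active mimic, they were tested against the mean of the miR-142-5p and miR-222-3p groups. This contrast uses the same 3 miR-183-5p tumours, so it is not independent of the one against ctrl. Again 0 genes passed (DESeq2), with 978 (6.35%) under an unadjusted 0.05, 437 higher (2.84%) and 541 lower (3.51%). edgeR called 0 genes, with 864 (5.59%) under an unadjusted 0.05. Without miR-183-5p tumour 3 DESeq2 called 5 genes, and without tumour 1 or tumour 2 it called 21 each. Mmp13 was closest among the genes above. The other mimics ranged from 3153 to 7287 normalised counts, and miR-222-3p tumours 2 and 3 lay above the lowest miR-183-5p tumour. Mmp13 was 0.94 higher on the log2 scale (SE 0.21, DESeq2 adjusted p = 0.0506), beside 0.97 against ctrl. Ero1l ranged from 4648 to 11241 in the other mimics, below every miR-183-5p tumour (0.93 higher). P2rx7 ranged there from 773 to 1904 normalised counts, above every miR-183-5p tumour (log2 fold change -0.78).

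Several gene lists gave larger counts in this contrast. All 3 miR-222-3p libraries belong to the 4 with the low Gm28661 share, so that set and that mimic cannot be told apart here. Of 30 glycolysis and hypoxia genes 17 were higher at a p-value under 0.05 (2.84% over all genes) with a median of 0.31, beside 2 members and 0.18 against ctrl. Of 18 macrophage genes 11 were lower (3.51% over all genes) with a median of -0.43, beside 3 and -0.40. Of 19 neutrophil genes 7 were higher (median 0.63) and of 19 cytokine genes 8 (median 0.44), beside 2.84% over all genes. The M2-like list had a median of -0.22 with 5 genes lower (3.51% over all genes). Fibroblast and matrix genes had a median of 0.39 and 1 member higher, as many as against ctrl, and miR-222-3p tumour 3 was the highest tumour of the series in that list. Lymphocyte values are not comparable here, since miR-142-5p tumour 3 held 2480 summed TPM of B lymphocyte genes and 604 of T lymphocyte genes, against at most 91.4 and 190 in the other 11 tumours.

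Finally, genes reported as miR-183-5p targets were examined. Of 20 tested, 7 hold an 8mer in the 3′ UTR, that is GTGCCATA, which pairs with the seed and ends in A, and 14 hold an 8mer or a 7mer-m8 (GTGCCAT). The 8mer sites of these 7 genes are shown because they are the strongest matches to the injected mimic, from GENCODE M21 transcripts (GRCm38), with the match in capitals.
Irs1, chr1:82236947-82236968, minus strand: taataagaatcataGTGCCATA
Ezr, chr17:6738986-6739007, minus strand: actgtggctcacggGTGCCATA
Kif2a, chr13:106961492-106961513, minus strand: taattttgcaggatGTGCCATA
Lrp6, chr6:134450576-134450597, minus strand: cagttttgctgcttGTGCCATA
Nefl, chr14:68089044-68089065, plus strand: atattcaatcctgtGTGCCATA
Ppp2ca, chr11:52122094-52122115, plus strand: acggaccaaaagatGTGCCATA
Ppp2cb, chr8:33619332-33619353, plus strand: tcatggaccaaaacGTGCCATA
The target genes had a median log2 fold change of 0.04, and 11 were positive.

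Irs1 was the only reported target with a p-value under 0.05 (lower, 1.60% over all genes). Its normalised counts were 1062, 1403 and 1040 in miR-183-5p tumours and 1364, 1481 and 1434 in ctrl. Tumour 2 lay within the ctrl range, and the log2 fold change was -0.29 (SE 0.14; -0.21 without tumour 3). Ezr, which links membrane to actin, was at -0.00 (SE 0.08), Kif2a, a microtubule depolymerase, at 0.12 (SE 0.16), and Lrp6, a Wnt co-receptor, at -0.11 (SE 0.18). Ppp2ca and Ppp2cb, the catalytic subunits of protein phosphatase 2A, were at 0.06 (SE 0.10) and 0.17 (SE 0.15). Nefl was at -0.43, with a wide SE of 1.0. Of the genes without an 8mer, Foxo1, a transcription factor restrained by insulin signalling, was at 0.06 (SE 0.15). Pdcd4, an inhibitor of translation, was at -0.12 (SE 0.24). Itgb1, the integrin beta 1 subunit, was at 20441, 22110 and 22801 normalised counts against 17243, 21413 and 19819 (0.16, SE 0.14). Dkk3, a secreted relative of Wnt inhibitors, was at 403, 482 and 478 against 347, 372 and 196 (0.58, SE 0.58), without overlap.

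Over all genes, the median of genes with a seed match differed little from that of genes without one, and the sign of the difference depended on the tumours kept. The 1358 genes with an 8mer or 7mer-m8 had a median log2 fold change of -0.024, the 234 with an 8mer one of -0.027, and the 13241 with neither one of -0.008. A p-value under 0.05 with a lower value was found for 25 genes with a match (1.84%) and for 211 without one (1.59%). The median of the genes with a match minus that of the genes without one was -0.016. It ran from -0.065 without ctrl tumour 1 to 0.020 without ctrl tumour 3 when each tumour was left out in turn.

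**Figure D5:**
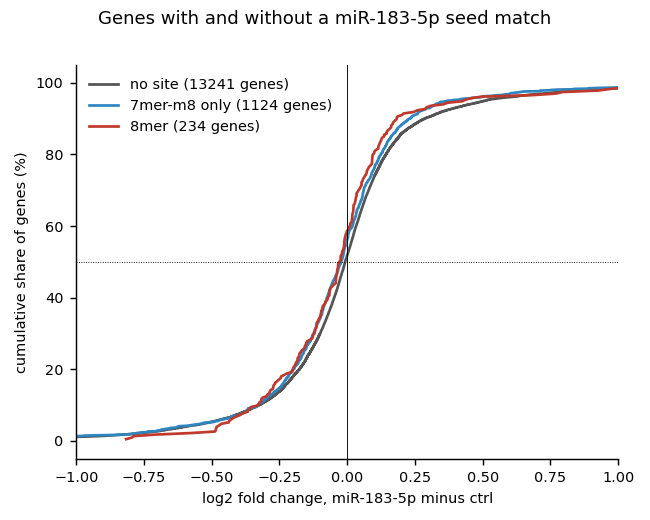
Cumulative share of genes (percent) by log2 fold change between miR-183-5p and ctrl tumours, for genes with no site (13241), with a 7mer-m8 but no 8mer (1124) and with an 8mer (234) for miR-183-5p in the 3′ UTR. The curves run close together, with medians of -0.008 for no site and -0.027 for 8mer genes.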

How the data were processed

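RNA-Seq was analysed in 12 4T1 tumours, 3 per mimic, grouped by the treatment in the labels. The authors mapped 4T1 tumour reads with Salmon, and the deposited tables hold for 118783 transcripts an estimated count (expected count), a TPM and an effective length. The methods and the tables name different Ensembl releases, so 116710 transcripts (98.3%) were matched to GENCODE M21 (GRCm38), giving 35944 genes. The unmatched transcripts held 0.633% to 0.671% of the reads. Gene totals of these estimated counts were rounded to whole numbers, and the TPM-weighted mean effective length entered as offset. Libraries held 20285968 to 27021401 reads. The smallest share a library can show, set at 3 reads, was 1.11e-05% to 1.48e-05%, and this floor and the 95% Wilson intervals cover counting error only. The test covered 15459 genes, each with 10 reads or more in 3 or more libraries.

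Differential expression was tested with DESeq2 1.42.0 in R 4.3.3 (Wald test, 12 libraries, group as the only factor, Benjamini-Hochberg adjustment, threshold 0.05), and edgeR 4.0.16 served as alternative. The scripts were tested on simulated data. Python 3.11.15, numpy 2.4.6, pandas 2.3.3 and matplotlib 3.10.9 were used. Chi-square statistics per degree of freedom between libraries of the same group were 14 to 43.6 in the 2 groups compared, so none was a copy of another.

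The rule for named genes took the 8 highest and 8 lowest Wald statistics among protein-coding genes with a mean of at least 100 normalised counts and no overlap, Arg1, Nos2, Tgfb1 and Il1b, the 5 lowest p-values per direction in the fit of the 2 groups, up to 4 genes of each list by p-value, and 5 muscle genes. For 1 more gene named by this rule no value is given. Members of a list cited for their position in it (Cd14, Col1a1, Col1a2, Ezr, Kif2a, Lrp6, Nefl, Ppp2ca, Foxo1, Pdcd4), Krt18 and F8 fall outside this rule and were chosen after their values were seen. The 29 lists cover cell types, macrophage states and pathways. Members and lists were chosen with earlier results of these data known, and the lists were described without a test. For seed sites, GENCODE M21 3′ UTRs (1 transcript per gene) were searched. Alternatives were TMM factors, other count filters, no length offset, the 2 groups alone, the replicate number as a block, protein-coding genes only, a threshold of 0.1 and each tumour left out in turn. The fits of the 2 groups without miR-183-5p tumour 3 and with edgeR were added after seeing the data. The test against the miR-142-5p and miR-222-3p groups used the same fit.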

Additional observations from a re-analysis of the deposited data

How the results depend on the processing

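With 3 tumours per group, adjusted p-values depended on which tumours entered the fit, and unless shown the cause was not tested. Against ctrl, the number of genes called (0) stayed 0 with edgeR, TMM factors, protein-coding genes only, a threshold of 0.1, no length offset, a filter of 50 counts in every library (11722 genes) and no filter at all (24230 genes). It was 36 with only the 2 groups compared, and from 0 to 13 when each tumour was left out in turn. Against the other mimics it moved from 0 to 3 with TMM factors, 3 with at least 50 counts, 3 without the length offset, 1 without the ctrl libraries, 5 with protein-coding genes only and 8 at a threshold of 0.1, and it ranged from 5 to 21 when a miR-183-5p tumour was left out. A replicate block called 1 gene against ctrl (Plin4) and 2 against the other mimics. The numbers gave no sign of pairing: deviations of tumours with the same number correlated at -0.131, -0.18 and -0.223 for numbers 1 to 3, so they share only a number. Of 139 named genes under the other 8 settings, 1056 of 1073 values kept their direction and their side of the threshold, and 17 passed only there, 16 of them in the fit of the 2 groups. Of 232 list medians, 224 moved by less than the spread between tumours. The exceptions were skeletal muscle (2.63), at 2.92 without a count filter, 0.25 with at least 50 counts, 3.05 without the offset and 1.70 with the block, erythroid genes (0.46), at 0.43, 0.51 and 0.42 in the first 3 of these, and dendritic cell genes (-0.30), at -0.07 with at least 50 counts. Leaving out each tumour in turn moved list medians from -0.04 to 3.08 (skeletal muscle), 0.27 to 0.65 (erythroid), -0.36 to -0.03 (dendritic cell), 0.23 to 0.43 (inflammatory cytokines), -0.37 to 0.02 (MHC class II) and 0.14 to 0.24 (glycolysis and hypoxia). Among named genes it turned the sign of Arg1 (-0.00 to 0.23), Car3 (-0.06 to 2.77), Trp63 (-1.09 to 0.05), Sbsn (-0.30 to 0.02), Krt15 (-0.18 to 0.28), Padi3 (-0.18 to 0.38), Cd28 (-0.92 to 0.04), Cr2 (-0.47 to 0.09), Cd79a (-0.39 to 0.51), Itgax (-0.38 to 0.01), H2-Ab1 (-0.37 to 0.02), Tap2 (-0.24 to 0.05), Acta1 (-5.18 to 10.03), Ckm (-0.47 to 5.97) and Mylpf (-0.14 to 3.19).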
